A study of Arabidopsis thaliana with 8 samples.

Results

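The loci described here are 3 neighbourhoods of the *Arabidopsis thaliana* genome that hold rapid stress-response genes: *WRKY40* (AT1G80840) with the convergent gene AT1G80850, *DIC2* (AT4G24570) with the convergent gene *REN1* (AT4G24580), and the cluster of *ESE1* (AT3G23220), *ERF98* (AT3G23230), *ERF1* (AT3G23240) and *MYB15* (AT3G23250). What was counted is not the genes themselves but the reads in the 500 bases downstream of the annotated end of each transcript model. The 8 genes have 9 of the 39087 transcript models in the deposited counts, and the 2 models of *MYB15* had the same count in each library. With the lowest-numbered model of each gene kept, 5 of the 8 windows passed edgeR's filter on low counts (*WRKY40*, AT1G80850, *DIC2*, *REN1* and *ERF98*), as did 12583 of all 31109 windows.

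RNA came from whole 9-day-old seedlings of ecotype Col-0, and each of the 4 lines had 2 libraries of polyadenylated RNA. In *fip37L*, the *fip37-4* mutant carries *FIP37* under the embryonic *LEC1* promoter, so that FIP37, a subunit of the complex that writes N6-methyladenosine (m6A) on mRNA, is lost after embryogenesis. The T-DNA line *cpsf30-3* lacks the long isoform of the polyadenylation factor CPSF30, which carries an m6A-binding YTH domain, and the T-DNA line *cpsf30-1* lacks both CPSF30 isoforms. WT plants served as control for all 3 mutants. The study's methods give a richer medium with sucrose, and harvest under a microscope, for experiments on *fip37-4* plants. Whether the other lines sequenced here were grown and harvested likewise is not given in the sources used here, so that growth and genotype cannot be told apart in *fip37L*. Of the lines sequenced here *fip37L* carries the *LEC1* transgene, and the sources used here do not state whether WT does. Each mutant is a single line. The labels do not say that replicates were grown apart, so tests measure the spread between these libraries only.

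Libraries held between 5862499 and 8411827 counts over all models, and between 0.530 and 0.722 CPM (counts scaled to a common library size, as edgeR gives them after TMM) correspond to 3 counts, taken as the least that a library can show. The second *CPSF30* model had 0 and 0 counts for *cpsf30-1*, 4 and 2 for *cpsf30-3*, 16 and 17 for *fip37L*, and 19 and 14 in WT. The *FIP37* window had 149 and 105 counts for *fip37L* and 56 and 37 in WT, but lies outside the gene and does not check that label. Gene bodies were not counted, so markers of the seedling could be read only from the window of AT1G29940, which faces the light-harvesting gene AT1G29930 and held 284865 counts or more in every library. The coefficient of variation between replicates beyond counting error, as edgeR estimates it, was 21.6% in *fip37L*, 12.4% in *cpsf30-3*, 8.71% in *cpsf30-1* and 6.39% in WT. The tests share their estimate of spread over all lines, so they may understate it in *fip37L*.

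WRKY40 is a transcription factor of the WRKY family, which bind the W box (core TTGAC) and shape the response to pathogens, wounding and abscisic acid. *WRKY40*, *ERF98* and *DIC2* are among the genes whose mRNA accumulates within minutes of touch, wounding, cold or elicitor and is then quickly degraded. *DIC2* encodes a dicarboxylate carrier of the inner mitochondrial membrane. ERF98 and ESE1 are small ethylene response factors (ERF) tied to ascorbate synthesis and salt tolerance, ERF1 joins ethylene and jasmonate signals in defence, and MYB15 acts in cold signalling and defence-related lignification.

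The positions of the windows determine what their counts can hold. On the TAIR10.1 assembly, *WRKY40* (chromosome 1, 30383561 to 30385499, plus strand) and AT1G80850 (30385449 to 30387602, minus strand) overlap by 51 bases at their 3′ ends. The window of AT1G80850 (30384949 to 30385448) therefore lies wholly inside *WRKY40*, with 455 bases in its exon sequence and 45 in an intron. The window of *WRKY40* (30385500 to 30385999) lies wholly inside AT1G80850, with 406 bases in exons. *DIC2* (chromosome 4, 12686459 to 12687650, plus strand) and *REN1* (12687879 to 12694656, minus strand) are 228 bases apart. The *REN1* window (12687379 to 12687878) holds this gap and the last 272 bases of the single *DIC2* exon, and the *DIC2* window (12687651 to 12688150) holds the gap and 272 exon bases of *REN1*. On chromosome 3, the window of *ERF98* (minus strand, 8288879 to 8289378) and that of *ESE1* (plus strand, 8288603 to 8289102) lie between both genes and share 224 bases. The windows of *ERF1* (8296605 to 8297104) and *MYB15* (8310911 to 8311410) overlap no annotated gene.

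**Figure D1:**
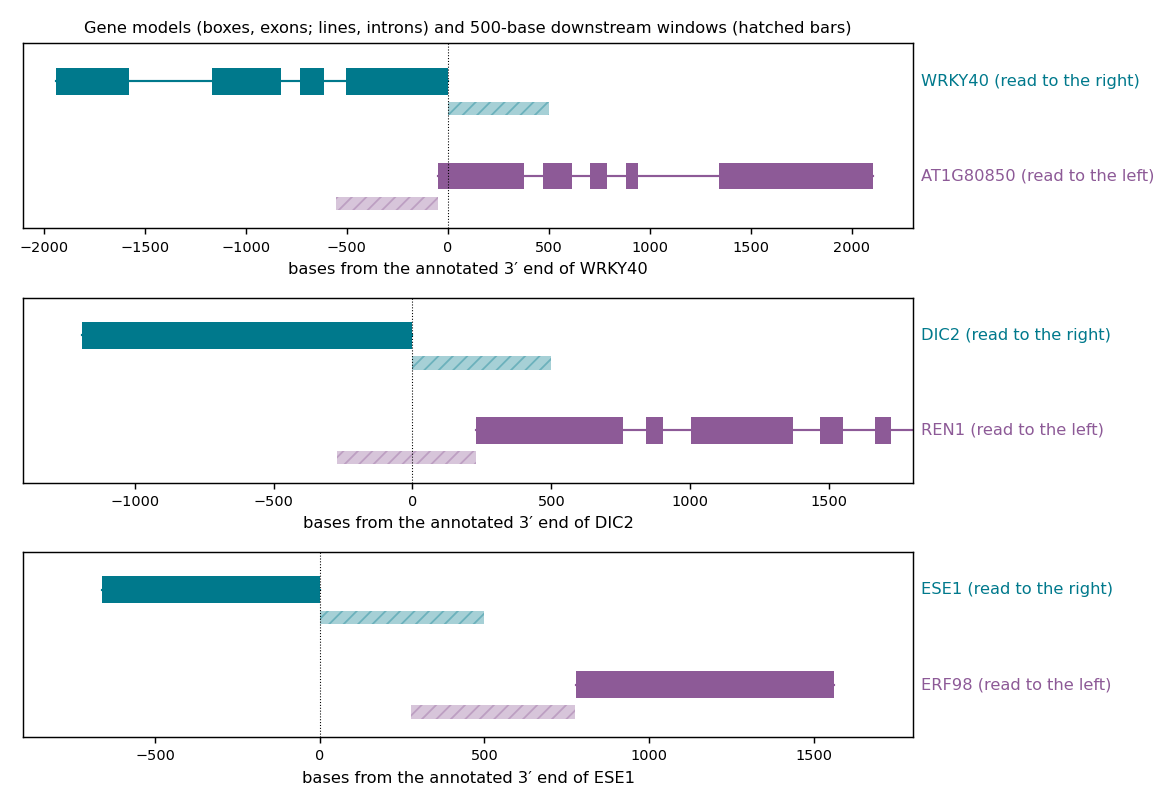
Gene models and windows at the 3 loci, plotted as bases from the annotated 3′ end of the upper gene, which is read to the right, while the lower gene is read to the left. Filled boxes are exons, lines introns and hatched bars the 500-base windows, and the windows of AT1G80850 and *REN1* reach back over *WRKY40* and *DIC2* by 500 and 272 bases.

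The last 30 bases of the 5 genes whose windows were tested are shown here because each window starts right after them. They come from RefSeq's TAIR10.1 assembly, at chr1:30385470-30385499, chr1:30385449-30385478, chr4:12687621-12687650, chr4:12687879-12687908 and chr3:8289379-8289408, each read 5′ to 3′ on the strand of its gene. Capitals mark the 9 bases that both chromosome 1 ends share on opposite strands, and the stop codon of *REN1*.
WRKY40: TACAATCTCcaatacattcggctttagaaa
AT1G80850: GAGATTGTAtgaaaaacgattacatgttac
DIC2: caattcaattttagtttctatactgatgtg
REN1: aacactacaccaaggaccttctccagaTGA
ERF98: atagatcttcactaagttactatatatgat
The annotated end of *REN1* is its stop codon, so any 3′ untranslated part of *REN1* mRNA would fall in its window. The hexamer AATAAA, the animal polyadenylation signal, was in the last 30 bases of none of the 8 genes and of 5.95% of 30622 genes.

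Whether a window also counts reads of the facing gene depends on the strand setting, which for these libraries is not given in the sources used here. The study calls its downstream read density strand-specific for a different mutant, which was not analysed here. The setting was examined from the counts, using windows of different genes on opposite strands that share at least 490 bases. Of 28 such pairs with at least 80 reads, 2 had identical counts in all 8 libraries, with up to 120 reads over the libraries, and 13 had sums within 10% of each other. Identical counts mean that reads of both strands were counted in those 2 pairs. In 8 pairs the sums were over 2-fold apart, and the ends used by the authors may differ there from the reference used here. Where models of 1 gene have the same end in the reference, counts were identical in 84.1% of 2133 sets. The window of AT1G29940, which faces the light-harvesting gene AT1G29930, held 284865 counts or more in every library. The strand of those reads was not tested. The counts of AT1G80850 and *REN1* below may therefore hold reads of *WRKY40* and *DIC2* mRNA as well as transcripts that run past the ends of AT1G80850 and *REN1*, and these sources cannot be told apart. Nor, in whole seedlings, can fewer cells of a type be told apart from less RNA per cell.

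The 3 loci were chosen from earlier results of these data, since AT1G80850 and *REN1* were among the windows with the largest rise in *cpsf30-3* and *ERF98* among those of *fip37L*, and since their *fip37L* replicates were uneven. Values of *fip37L* and *cpsf30-3* against WT, and the differences between replicates, are therefore a description with no test. The contrast of *cpsf30-1* with WT was not used by that choice and was tested by edgeR over all 12583 windows. It shares its WT libraries with the contrasts that were used, so it is not fully independent of the choice. A window was called where its adjusted p was below 0.05 and its levels differed 2-fold or more. All 5 windows that passed the filter lay above both WT libraries in both *fip37L* libraries, and 4 of the 5 did so in *cpsf30-3*. The same held for 31.3% and 27.7% of all tested windows, and nothing is read from the counts of members. In *cpsf30-1* the windows of *WRKY40*, *DIC2* and *REN1* did so, as did 32.0% of all tested windows.

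The window of AT1G80850, which lies over *WRKY40* exon sequence, had the widest range. It had 1123 and 242 counts for *fip37L*, 421 and 539 for *cpsf30-3*, 22 and 177 for *cpsf30-1*, and 18 and 29 in WT. Scaled, these were 198 and 58.2 CPM for *fip37L*, 81.9 and 125 for *cpsf30-3*, 5.17 and 35.2 for *cpsf30-1*, and 3.43 and 5.88 in WT. Both *fip37L* and both *cpsf30-3* libraries stood far above WT, while *cpsf30-1* had 1 library at the WT level and 1 above it. The mean was 128 ± 99.1 CPM in *fip37L* against 4.65 ± 1.73 in WT (SD, n = 2 each), a ratio of 27.6, and 104 ± 30.7 in *cpsf30-3*, a ratio of 22.3. Without the first *fip37L* library the log2 change in *fip37L* was 3.65, against 4.80 ± 0.84 (SE) with both. In *cpsf30-1* the log2 change of 2.16 ± 0.93 was not called (edgeR, adjusted p = 0.13). That value rests on the second *cpsf30-1* library, since it was 0.15 without that library and 2.93 (edgeR, adjusted p = 0.044) without the first. Both *cpsf30-3* libraries lay between those of *fip37L*, so these mutants did not differ beyond their spread.

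The window on the other side of the same junction behaved differently. The window of *WRKY40*, over the 3′ exons of the DNA glycosylase family gene AT1G80850, had 39.2 and 76.3 CPM for *fip37L*, 29.8 and 38.4 for *cpsf30-3*, 34.1 and 37.2 for *cpsf30-1*, and 31.6 and 29.2 in WT. All libraries but the second of *fip37L* fell within a narrow band. The fitted log2 change in *cpsf30-1* was 0.23 ± 0.27 and was not called (edgeR, adjusted p = 0.59). In *fip37L* it was 0.91 ± 0.27 with both libraries and 0.36 without the second. The first *fip37L* library thus had more reads than the second in the AT1G80850 window and fewer in the *WRKY40* window. Reads of the *WRKY40* window may be AT1G80850 mRNA as well as transcripts that run past the end of *WRKY40*. The AT1G80850 window had 5.06 and 0.763 reads per read of the *WRKY40* window in *fip37L*, 2.75 and 3.27 for *cpsf30-3*, 0.152 and 0.947 for *cpsf30-1*, and 0.108 and 0.201 in WT.

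*DIC2* and *REN1* showed a like split between both sides of a convergent pair. As the windows of AT1G80850 and *REN1* were chosen for their rises, nothing is read from the split at either locus. REN1 is known from pollen tube growth. Its window, which reaches over the end of *DIC2*, had 394 and 120 counts for *fip37L*, 232 and 397 for *cpsf30-3*, 28 and 100 for *cpsf30-1*, and 13 and 24 in WT. These were 69.6 and 28.9 CPM for *fip37L*, 45.1 and 92.3 for *cpsf30-3*, 6.58 and 19.9 for *cpsf30-1*, and 2.48 and 4.87 in WT. All 6 mutant libraries were above both WT libraries, with *fip37L* and *cpsf30-3* again overlapping each other and *cpsf30-1* below them. The mean was 49.2 ± 28.8 CPM in *fip37L* and 68.7 ± 33.4 in *cpsf30-3*, against 3.67 ± 1.69 in WT (SD, n = 2 each), ratios of 13.4 and 18.7. Without the first *fip37L* library the log2 change of the *REN1* window in *fip37L* was 2.98, against 3.76 ± 0.65 with both. In *cpsf30-1* the log2 change was 1.88 ± 0.72 and not called (edgeR, adjusted p = 0.093), and it was 0.84 without the second *cpsf30-1* library. In a fit of *cpsf30-1* and WT alone the *REN1* window (adjusted p = 0.0095) and that of AT1G80850 (adjusted p = 0.023) were both called by edgeR.

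The *DIC2* window itself was the only member called in *cpsf30-1*, where 11.0% of all tested windows were called higher. It had 33 and 35 counts for *cpsf30-1*, 22 and 22 for *fip37L*, 23 and 31 for *cpsf30-3*, and 14 and 18 in WT. It rose in *cpsf30-1* to 7.36 ± 0.558 CPM, against 3.16 ± 0.695 in WT (SD, n = 2 each), a log2 change of 1.21 ± 0.33 (edgeR, adjusted p = 0.026). The call was lost when any of the 4 libraries was left out, at adjusted p between 0.077 and 0.17 by edgeR, and under DESeq2 (log2 change 1.25, adjusted p = 0.18). In *fip37L* the log2 change of the *DIC2* window was 0.52 ± 0.35 and in *cpsf30-3* 0.87 ± 0.34. The 2 windows share the 228-base gap, so if reads of both strands were counted, the gap can hold no more reads than the *DIC2* window did. At most 22 of 394 and 22 of 120 reads of the *REN1* window in *fip37L* can then come from the gap, and the others overlap the *DIC2* exon.

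At the ERF cluster only *ERF98* had reads past the filter. Its window had 84 and 5 counts for *fip37L*, 4 and 13 for *cpsf30-3*, 0 and 0 for *cpsf30-1*, and 0 and 0 in WT. It passed the filter through the mutants alone. With WT set at the floor of 3 counts per library (0.589 CPM), the mean of 8.02 ± 9.64 CPM in *fip37L* was at least 13.6-fold higher, and the mean of 1.90 ± 1.59 CPM in *cpsf30-3* at least 3.22-fold higher (SD, n = 2 each). Each bound rests on 1 library, since the lower library alone was at least 2.04-fold higher in *fip37L* and 1.32-fold in *cpsf30-3*. No difference between *cpsf30-1* and WT was detectable at this depth. The neighbouring window of *ESE1* had 0 counts in every library, which allows up to 3 counts in each. As *ESE1* and *ERF98* share 224 bases of their windows, reads counted on both strands would place all those of *ERF98* in the 276 bases next to its annotated end. The *ERF1* window also had 0 counts in all 8 libraries, and that of *MYB15* had 2 and 0 for *fip37L*, 0 in the 4 libraries of the CPSF30 mutants, and 0 and 1 in WT.

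**Figure D2:**
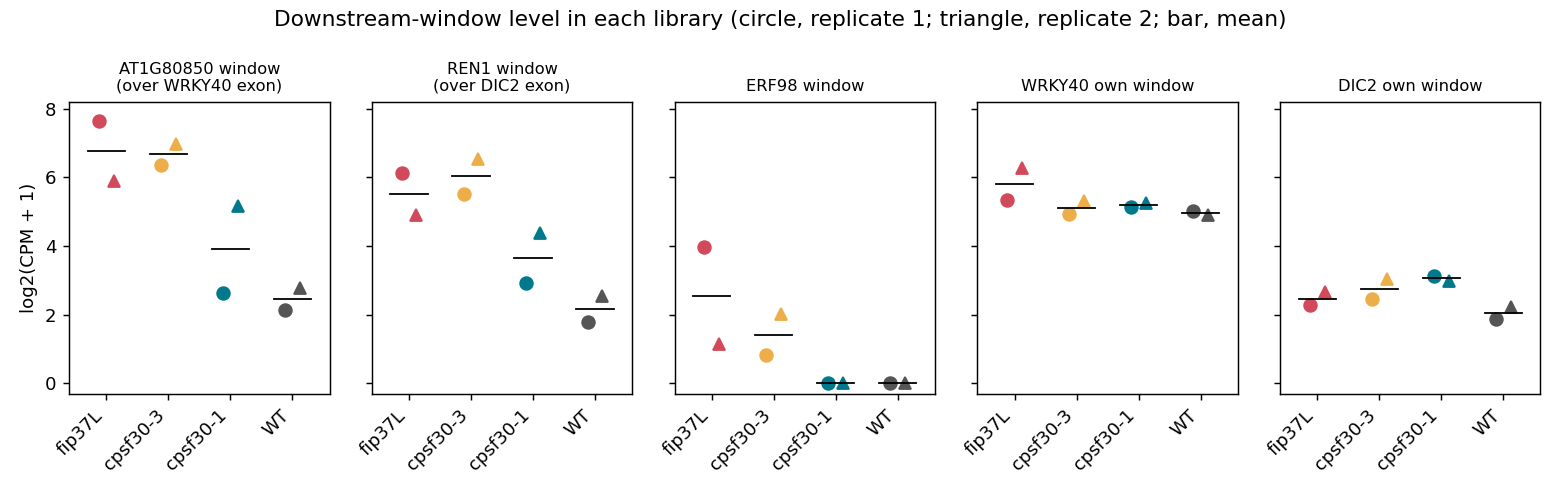
Level of the 5 tested windows in each library as log2(CPM + 1), by line, with replicate 1 as circles, replicate 2 as triangles and the mean as a bar. The AT1G80850 window spans 3.43 to 198 CPM over the 8 libraries, the *WRKY40* window 29.2 to 76.3 CPM and the *DIC2* window 2.67 to 7.75 CPM.

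Over the 8 libraries the log2(CPM + 1) of AT1G80850 and *REN1* had a Pearson r of 0.981, that of AT1G80850 and *ERF98* 0.802 and that of *REN1* and *ERF98* 0.76, while AT1G80850 and *WRKY40* had 0.377. The windows of AT1G80850, *REN1* and *ERF98* were chosen for rises in these lines, which fixes the sign, and the libraries share depth scaling and line. The *fip37L* replicates were known to be uneven when the members were chosen, so their ratios are a description from which nothing is read. In *fip37L* the first library was above the second by 3.41-fold at AT1G80850, 2.41-fold at *REN1* and 12.3-fold at *ERF98*. Over all tested windows the first library was at least 2-fold above the second in 6.67%. The *WRKY40* and *DIC2* windows had ratios of 0.514 and 0.734. The second *fip37L* library was at least 2-fold above the first in 4.15% of all tested windows. In the CPSF30 mutants the second library was the higher one at AT1G80850 and *REN1*. It was above the first by 6.81-fold and 3.02-fold at AT1G80850 and *REN1* in *cpsf30-1*, and by 1.53-fold and 2.05-fold in *cpsf30-3*. Of all tested windows, 2.77% in *cpsf30-1* and 4.12% in *cpsf30-3* had the second library at least 2-fold above the first, and 2.47% and 3.72% the reverse. In WT the second library was also above the first, by 1.72-fold at AT1G80850 and 1.97-fold at *REN1*. Of all tested windows 3.74% in WT had the second library at least 2-fold above the first, and 3.48% the reverse.

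**Figure D3:**
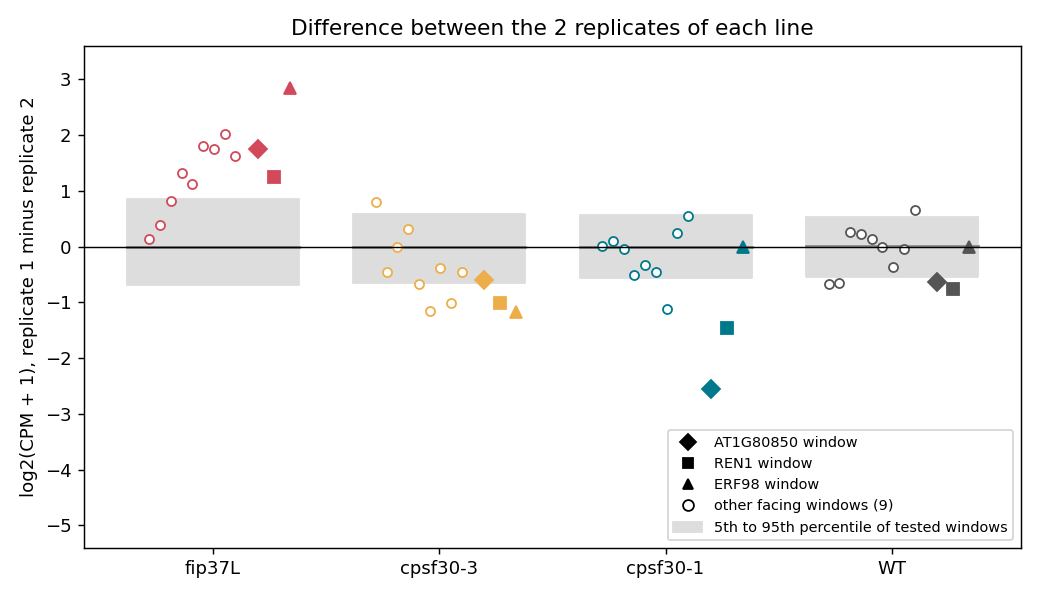
Difference in log2(CPM + 1) between replicate 1 and replicate 2 of each line, for the windows of AT1G80850, *REN1* and *ERF98* (filled) and for 9 other windows that overlap rapid stress genes on the opposite strand (open). Grey boxes span the 5th to 95th percentile of all 12583 tested windows, and the member windows, chosen with their unevenness known, are at 1.75, 1.24 and 2.85 in *fip37L*.

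Other rapid stress genes were then examined, to see whether windows laid over them on the opposite strand varied in the same way. A list of 54 genes (WRKY, ERF, CBF, ZAT and MYB factors, touch genes, JAZ repressors, MAP kinases, U-box ligases and others, members left out) was chosen with earlier results of these data known. Calls and replicate ratios of windows over these genes are therefore a description and no independent support. Of the 54 genes, 10 had exon sequence under the downstream window of an opposite-strand gene. These were 11 windows, of which 9 were tested. In *fip37L*, 7 of the 9 rose and 0 fell by edgeR, against 7.10% and 2.85% of all tested windows, and their median log2 change was 1.88 against 0.03 over all windows. The 9 include the window over *ERF109*, which passed the filter through *fip37L* and *cpsf30-3* alone, so its call in *fip37L* is no support. With the filter at a mean of 20 counts, 6 windows over list genes were called higher in *fip37L*. In *cpsf30-3*, 3 of the 9 rose and 0 fell, against 1.33% and 0.159%, with a median of 1.18. In *cpsf30-1*, 0 of the 9 rose and 0 fell by edgeR, where 11.0% and 2.57% of all windows were called, 0 had an unadjusted p under 0.05, DESeq2 called 0, and the median was -0.18.

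The *fip37L* calls included windows over well-known immune and stress regulators. The window of AT2G38480, over *WRKY33* (a regulator of camalexin synthesis and defence against necrotrophs), had 2339 and 509 counts for *fip37L* and 96 and 117 in WT, a log2 change of 3.68 ± 0.55 (edgeR, adjusted p = 0.0023). It had 1097 and 1194 counts for *cpsf30-3* (3.55 ± 0.55, edgeR, adjusted p = 0.018), and 76 and 200 for *cpsf30-1* (0.47 ± 0.57, adjusted p = 0.60). The window of AT4G23800, over *WRKY53* (a factor of leaf senescence), had 903 and 160 counts for *fip37L*, 219 and 372 for *cpsf30-3*, 25 and 24 for *cpsf30-1*, and 31 and 30 in WT, and was called in *fip37L* and *cpsf30-3*. The window of AT3G18680, over *MKS1* (a MAP kinase substrate that binds WRKY33), had 263 and 108 counts for *fip37L*, 183 and 153 for *cpsf30-3* and 90 and 70 in WT, and was called in both of these mutants as well. Those over *ERF109* (a redox-responsive ERF), *PUB24* (a U-box ligase that dampens immunity), *CAF1B* (a deadenylase) and *MYB44* (a factor of abscisic acid signalling) were also called in *fip37L*. The log2 changes over *PUB24*, *CAF1B* and *MYB44* were 2.34, 1.88 and 1.61. The window over *ERF109* (AT4G34412) had 54 and 10 counts for *fip37L* and 3 and 0 in WT, where the level is at or under the floor, so its size of change was not measured. Those over *FRK1* and *HSFA4A* were not called in any mutant.

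The *fip37L* replicates were also uneven in these windows, whose list was chosen with earlier results known. The first *fip37L* library was at least 2-fold above the second in 6 of the 9, with a median ratio of 2.52, against 6.67% of all tested windows. In *cpsf30-3* the median ratio of the first to the second library was 0.705, in *cpsf30-1* 0.864 and in WT 0.981. Without the first *fip37L* library 2 of the 9 windows were called higher in *fip37L*, and without the second 7. Leaving out the first or the second WT library also left 2, and in *cpsf30-3* no library could be left out without losing all 3 calls. The difference between the mutants was tested after the values had been seen. By edgeR 8 of the 9 windows were higher in *fip37L* than in *cpsf30-1*, against 7.70% of all tested windows, and 5 of the 9 were higher in *cpsf30-3* than in *cpsf30-1*, against 1.45%. Here too the 9 include the window over *ERF109*, which passed the filter through *fip37L* and *cpsf30-3* alone.

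**Figure D4:**
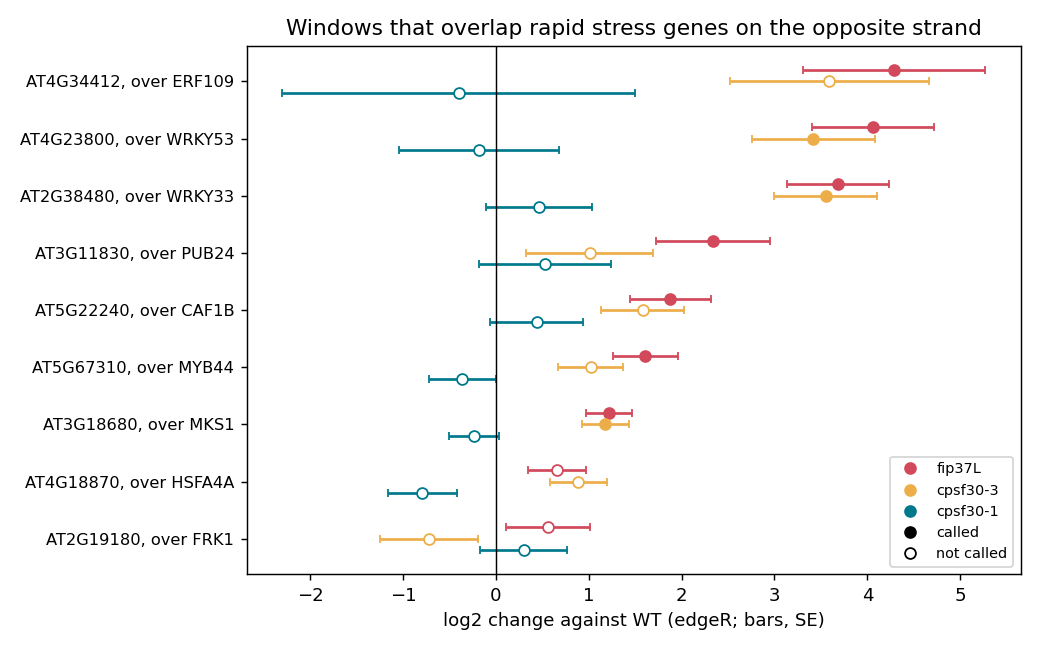
Log2 change against WT of the 9 tested windows that overlap a rapid stress gene on the opposite strand, in *fip37L*, *cpsf30-3* and *cpsf30-1*, with SE from edgeR and filled points for called windows. In *fip37L* 7 points are filled and in *cpsf30-1* 0, and the size of change over *ERF109* was not measured, since WT had 3 and 0 counts there.

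The downstream windows of the list genes themselves were examined too. Some of them overlap neighbouring genes and may hold reads of those genes. Of 54 such windows 16 were tested. In *fip37L* 0 rose by edgeR (2 with an unadjusted p under 0.05 and 0 by DESeq2) and 2 fell (6 with an unadjusted p under 0.05 and 1 by DESeq2), where 7.10% and 2.85% of all tested windows were called higher and lower. The *WRKY53* window, which lies inside the facing gene AT4G23800, fell to 271 and 210 counts for *fip37L*, against 698 and 697 in WT, a log2 change of -1.48 ± 0.10 (edgeR, adjusted p = 0.00011). The *WRKY18* window fell to 5 and 6 counts, against 24 and 21 in WT (edgeR, adjusted p = 0.0091). WRKY18 is a close relative and partner of WRKY40. Without the first *fip37L* library or either WT library 1 window was called lower. In *cpsf30-3* the window of the MAP kinase gene *MPK3* rose (12 and 16 counts against 0 and 2 in WT, edgeR, adjusted p = 0.049), a call lost when any of these 4 libraries was left out. In *cpsf30-1* it had 28 and 45 counts (edgeR, adjusted p = 0.00097), and the windows of *MYB44* (13 and 27 counts against 0 and 0 in WT, adjusted p = 0.0034) and *TCH4*, a touch-induced cell wall enzyme gene (13 and 28 against 3 and 0, adjusted p = 0.0060), rose too. Called higher were thus 1 of 16 windows in *cpsf30-3* and 3 of 16 in *cpsf30-1*, beside 1.33% and 11.0% of all tested windows. The *MYB44* and *TCH4* windows passed the filter through *cpsf30-1* alone, and that of *MPK3* through the CPSF30 mutants. Nothing is therefore read from these counts of calls. With the filter at a mean of 20 counts, 0 were called higher in *cpsf30-1* and 0 in *cpsf30-3*. The *MYB44* window overlaps the facing gene AT5G67310, and those of *MPK3* and *WRKY18* a neighbour on their own strand. The median log2 change of the 16 windows was -0.01 in *fip37L*, 0.03 in *cpsf30-3* and -0.12 in *cpsf30-1*.

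The windows most like AT1G80850 and *REN1* over the 8 libraries, by Pearson r of log2(CPM + 1), were taken from all tested windows. The 5 most like each made up 8 windows, since 2 were on both lists, and all 8 overlap a gene on the opposite strand, as did 60.2% of the 12481 tested windows that could be placed on the genome. For AT1G80850 the first was AT1G22200 (r = 0.985), over the AP2-domain gene AT1G22190, with 585 and 182 counts for *fip37L*, 267 and 269 for *cpsf30-3*, 68 and 181 for *cpsf30-1*, and 76 and 63 in WT. The others (r from 0.969 to 0.981) were AT3G46610, over the GRAS factor gene AT3G46600, and *BIP3*, over the cold-regulated *SRC2*. With them were *RALFL33*, over AT4G06335, and *PAP21*, over the A20/AN1 zinc finger gene AT3G52800. For *REN1* the first was *RALFL33* (r = 0.986). The others (r from 0.959 to 0.970) were *MMD1*, over the U-box ligase gene *CMPG1*, *BIP3*, *EXT12*, over *RTFL12*, and AT2G27090, over AT2G27080.

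Promoters were searched for the W box core TTGAC on either strand, from 250 bases before to 50 after the annotated start. Of 30621 promoters 50.1% held at least 1 such core and 17.4% at least 2, so a match is common. It was found 2 times each at *DIC2*, *REN1* and *ERF98*, 1 time each at *WRKY40*, AT1G80850, *ERF1* and *MYB15*, and not at *ESE1*. The GCC box GCCGCC, the site of many ERF proteins, was in none of the 8 promoters and in 2.69% of all. The sites upstream of the 3 rapid stress genes are shown because WRKY proteins bind such cores, with the core or its reverse complement in capitals and 1 of both sites at *DIC2*, at chr1:30383389-30383418, chr4:12686324-12686353 and chr3:8290225-8290254.
WRKY40: aaaaataagaatGTCAAccaactatccaaa
DIC2: ttttcctactttTTGACtatttttataacc
ERF98: aGTCAAcccaagaaggcaagaatcGTCAAg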

How the data were processed

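The authors removed chloroplast, mitochondrial and rRNA reads with Bowtie 2 (version 2.3.4), mapped the others to TAIR10 with TopHat2 (version 2.0.7) and counted them with BEDTools in 500-base windows. The deposited values are raw counts per transcript model, 1 file per library, from stranded single-end libraries of polyadenylated RNA. The lowest-numbered model of each gene was used. Windows were placed from the RefSeq annotation of TAIR10.1, whose ends can differ from those the authors used. Counts were fitted in R 4.3.3 with edgeR 4.0.16 (quasi-likelihood, TMM, filter by group, all 8 libraries, 4 residual degrees of freedom, two-sided, Benjamini-Hochberg). The procedure was tested on simulated data. DESeq2 1.42.0, other filters and scalings, pairwise fits, a replicate block, all models and leaving out each replicate were alternatives. Symbols came from RefSeq, and Python 3.11.15 was used. Members, lists and tests were chosen with earlier results of these data known. Named windows were all members, called windows of the list (up to 6 by size of change for each mutant and window kind) and the 5 most like each facing window. Floors of 3 counts cover counting error only, while SD and SE hold the spread between libraries.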

Additional observations from a re-analysis of the deposited data

How the results depend on the processing

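Deviations of same-numbered libraries hardly correlated over all tested windows (correlations from -0.0929 to 0.0528), and pairing at single windows was not tested. The replicate block changed 2 of the counts tested, own windows of the list higher in *cpsf30-3* (0 in place of 1) and windows over list genes higher in *cpsf30-3* (2 in place of 3). It left the member count in *cpsf30-1* at 1. Calls of members in *cpsf30-1* numbered 1, but 3 with no filter and in the fit of only the 2 groups, 0 with DESeq2, and 0 to 1 when a replicate was left out. In those fits a lone library is assumed to vary like the other groups. Of windows over list genes, those higher in *cpsf30-3* numbered 3, but 7 with no filter, 6 with only the 2 groups and 5 against *cpsf30-1* (added after seeing the data), and 0 to 0 without single replicates. Those higher in *fip37L* ran from 2 to 7 in the same way. Of the list's own windows, those lower in *fip37L* numbered 1 with DESeq2 and with the filter at a mean of 20 counts, and 1 to 2 without single replicates, and those higher in *fip37L* numbered 1 with no filter. Own windows higher in *cpsf30-3* numbered 0 with DESeq2, library size scaling, the stricter filter and each left-out replicate, and those higher in *cpsf30-1* 0 with the stricter filter and 2 to 3 without single replicates. The log2 change of the *WRKY40* window in *cpsf30-3*, 0.16, was -0.01 without the second *cpsf30-3* replicate and 0.35 without the first. Except for left-out libraries, the cause was not tested.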
